A study of Mus musculus with 31 samples.

Results

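The 49 genes described here code for the replication-dependent and linker histones of the mouse, and were chosen by name: every gene of the array whose symbol places it in the Hist1, Hist2, Hist3 or Hist4 cluster, out of 36161 genes in all. One 60-base probe stood for each gene, the one with the highest mean signal. RNA came from the whole brain of 31 female C57BL/6J mice aged 6 weeks, with 1 single-colour array per mouse. Under ketamine and xylazine, each mouse received 200 µl into the tail vein, either physiological serum (14 mice) or oleic acid (17 mice, 1.2 µl for each g they weighed). Intravenous oleic acid is used as a model of acute lung injury, and the study compared the brain after it with the brain after serum. Brains were taken 1, 1.5, 3, 4, 18 or 24 h after the injection. Each treatment had 3 mice at 1 h and 3 at 1.5 h; the 3, 4 and 24 h groups had 2 serum mice and 3 given oleic acid, and the 18 h groups 2 of each. A whole brain mixes all of its cell types, so fewer cells of a type and less RNA per cell cannot be told apart in any value below.

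Core histones H2A, H2B, H3 and H4 form the spool that DNA is wound on, and linker histone H1 binds where the DNA enters and leaves it. Most of these genes lie in clusters and are expressed mainly in S phase, when new chromatin is packed. Their mRNAs usually end in a conserved stem-loop, bound by SLBP, rather than in a poly(A) tail, while some of the genes also give polyadenylated mRNA in cells that no longer divide. Most cells of an adult brain do not divide. The labelling kit named in the labels primes on poly(A), so the signal depends on which ends the transcripts carry; the share of polyadenylated transcripts was not measured.

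The members comprised 6 H1, 14 H2A, 12 H2B, 8 H3 and 9 H4 genes. By cluster, 36 belonged to Hist1 on chromosome 13, 9 to Hist2 on chromosome 3, 3 to Hist3 on chromosome 11 and 1 to Hist4 on chromosome 6. Of the 49, 34 were well above background on all 31 arrays. A gene was tested if all arrays of some group, 1 or more of the 12, read it well above background. This held for 43 members, among 25132 genes. The 43 were 5 H1, 13 H2A, 10 H2B, 6 H3 and 9 H4 genes. The 6 others were Hist1h2ae and Hist1h3a, above background on 0 arrays, Hist1h2bb on 1, Hist1h1d on 2, and Hist1h3g and Hist3h2bb-ps on 3 each.

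The probes show why some of these genes cannot be read apart. The 5 probes of Hist1h2af, Hist1h2ah, Hist1h2ak, Hist1h2an and Hist2h2aa2 shared at least 50 of their 60 bases with another of them, and 8 member probes ended in a stop codon, at the end of the coding sequence. The 4 H2A coding ends below are given 5′ to 3′ on the gene's strand, with capitals at the 10 positions where not all 4 have the same base. They are taken from the array annotation, which places them on mm9 at chr13:23626113-23626172 (+), chr13:21845304-21845363 (-), chr13:21878695-21878754 (-) and chr3:96049837-96049896 (+).
Hist1h2af: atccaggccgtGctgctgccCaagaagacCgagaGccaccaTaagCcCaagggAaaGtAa
Hist1h2ak: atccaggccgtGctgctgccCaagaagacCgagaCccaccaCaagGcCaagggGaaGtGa
Hist1h2an: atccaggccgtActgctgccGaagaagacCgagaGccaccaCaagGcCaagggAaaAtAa
Hist2h2aa2: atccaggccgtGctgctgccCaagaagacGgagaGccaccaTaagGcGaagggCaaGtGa
Pairs of these 4 were identical at 52 to 55 of 60 bases, so their values are uncertain as values of single genes and are described together below.

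Another 6 probes held the stem-loop that lies past the stop codon. The stretch around it is given for each, 5′ to 3′ on the gene's strand, with the 16 bases of the stem-loop in capitals, because these probes span the feature that marks replication-dependent histone mRNA. They were found by the histone stem-loop consensus on the mRNA strand, which 0.0126% of all 55681 probes hold.
Hist1h3a: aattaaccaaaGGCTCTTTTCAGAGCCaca
Hist1h3g: cactttaaaGGCTCTTCTTAGAGCCaccca
Hist1h3i: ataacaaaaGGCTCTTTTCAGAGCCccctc
Hist1h4m: caactaaaGGCCCTTTTCAGGGCCatccaa
Hist2h2aa1: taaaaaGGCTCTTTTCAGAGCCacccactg
Hist2h2bb: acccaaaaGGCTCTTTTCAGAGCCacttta
Of these 6, Hist2h2aa1 and Hist2h2bb were above background on all 31 arrays, Hist1h4m on 25 and Hist1h3i on 20, Hist1h3g on 3 and Hist1h3a on 0. The Hist2h2aa1 probe had 38 of its 60 bases past the stem-loop, against 3 to 6 in the others. How much of its signal came from transcripts that end at the stem-loop was not measured. The array annotation places the Hist2h2aa1 probe at chr3:96049949-96050008 (+), just past that of Hist2h2aa2 at chr3:96049837-96049896 (+). They are counted as separate genes here, but whether they read separate genes is unsure. The letters AATAAA or ATTAAA, those of a poly(A) signal, lay on the mRNA strand of 4 member probes and of 13.7% of all probes. The 4 were those of Hist1h2ag, Hist1h2be, Hist1h4i and Hist3h2ba, all above background on all 31 arrays.

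Signal is given below as a level, the log2 processed intensity minus the 75th percentile of the same array. Probes differ in how well they bind, so levels are compared between mice for 1 probe and not between genes. The probes with the highest mean level over the 31 arrays were those of Hist2h2aa2 at 5.66 ± 0.24 (SD, n = 31), Hist1h2ah at 5.66 ± 0.25 and Hist1h2af at 5.58 ± 0.25. Those of Hist1h2ak at 5.45, Hist2h2ac at 5.44, Hist1h4k at 4.49, Hist2h4 at 4.43, Hist1h2ag at 4.26, Hist1h2an at 3.99 and Hist1h3d at 3.66 came next. The array annotation gives the Hist1h2ag probe a span of 59681 bases (chr13:23666685-23726365), so which transcript it reads is unsure. Among linker histones, the mean levels were 1.84 ± 0.39 for Hist1h1c, 1.16 ± 0.45 for Hist1h1e, -2.01 ± 0.36 for Hist1h1b and -3.65 ± 0.31 for Hist1h1a, each above background on all 31 arrays. Hist1h1t, known as the testis linker histone, had a mean of -5.08 and was above background on 13 arrays.

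**Figure D1:**
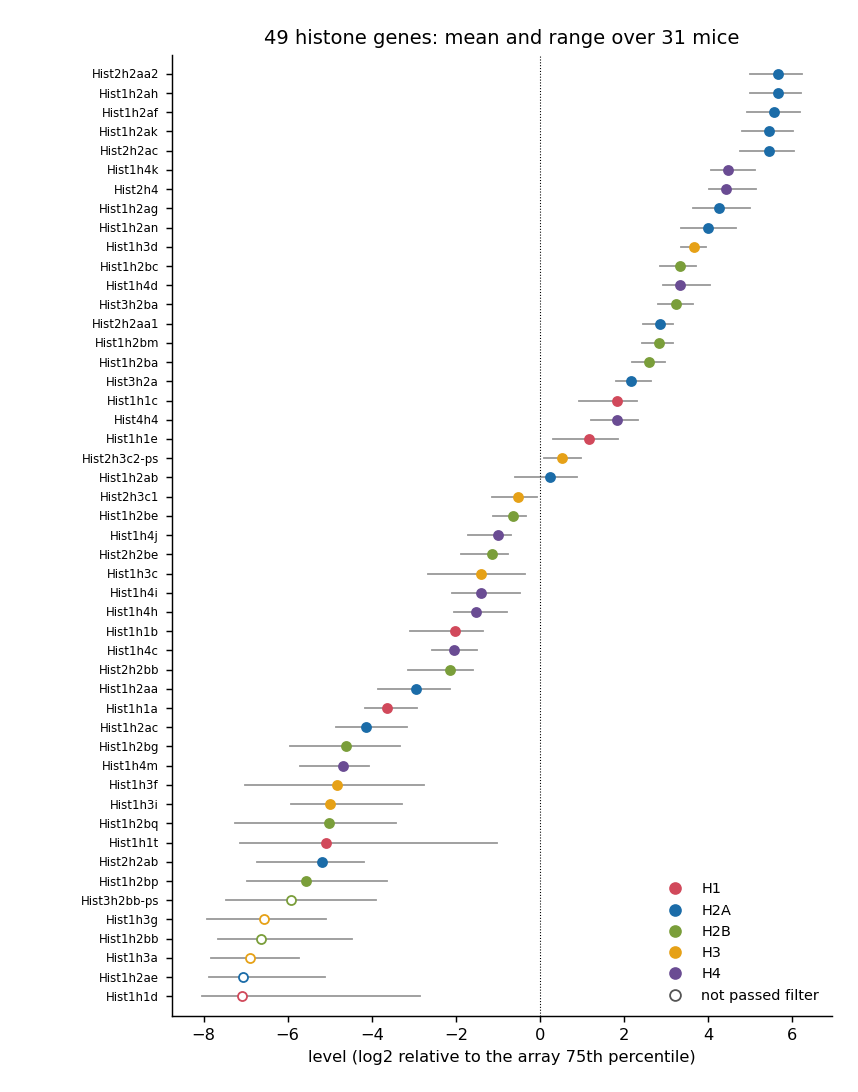
Mean level of each of the 49 histone probes over 31 arrays (log2 processed intensity minus the array 75th percentile), coloured by family, with lines from the lowest to the highest array and open symbols for the 6 genes that did not pass the background filter. Means run from 5.66 for Hist2h2aa2 to -7.08 for Hist1h1d, and the order is one of probe signal, not of transcript abundance.

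Some facts of the arrays touch every result. The 75th percentile of processed intensity ran from 306 to 813 and the share of spots well above background from 54.3% to 76.3%. The arrays lay on 5 slides, and slides followed time: slide 1 held all 1 h mice and 2 serum mice of 1.5 h, slide 4 all 4 h mice with the serum mice of 18 h, and slide 5 the oleic acid mice of 18 h and 24 h with 1 serum mouse. At 18 h, treatment and slide cannot be told apart. At 1.5 h the serum mice lay on slides 1 and 2 and the oleic acid mice on slides 2 and 3, so only slide 2 held both. Markers of neurons and astrocytes (Snap25, Gfap) were above background on all 31 arrays. The level of Gabra6, a cerebellar granule cell gene, ran from -7.59 to 2.32, and that of Prl, the pituitary hormone prolactin, from -8.05 to 7.91. Gabra6 was above background on 27 of 31 arrays, and its 4 lowest arrays lay between -7.59 and -6.12. The 3 arrays of highest Prl lay between 7.66 and 7.91. Whether every sample held the same brain regions was not tested. Each contrast between times was also fitted without the 4 arrays of lowest Gabra6 and without the 3 of highest Prl, and calls lost that way are given with the gene. P-values measure the spread between these mice; nothing in the labels says that equal replicate numbers pair them.

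Between oleic acid and serum mice, no histone gene passed the test at any time. Most members nevertheless lay slightly lower after oleic acid: over the mean of the 6 times, 37 of 43 differences were below 0, with a median of -0.13, while 52.5% of all genes tested were below 0 with a median of -0.01. In limma's fit with Benjamini-Hochberg adjustment, 0 of 43 members were called for that mean, where 0% of all genes were. At an unadjusted p under 0.05 there were 11 of 43, against 4.55% of all genes. Markers of cell types also differed over the mean of the 6 times. All 4 erythroid genes were lower after oleic acid (median -0.69), and all 4 cerebellar granule cell genes higher (median 0.55). All 4 neuronal (median -0.06) and all 4 oligodendrocyte genes (median -0.10) were lower, as were 3 of 4 astrocyte, neutrophil and hepatocyte genes each. Of 3 pituitary genes, 1 was lower. In limma's fit 0 of these markers were called, and their part in the lean was not tested. The members are not independent of each other: they share arrays, and some share probe sequence. The list's count and median are a description.

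By family, the median difference over the 6 times was -0.16 for H1 (4 of 5 genes below 0), -0.18 for H2A (12 of 13), -0.10 for H2B (9 of 10), -0.07 for H3 (4 of 6) and -0.13 for H4 (8 of 9). The 5 near-identical H2A probes gave -0.19 to -0.17. The smallest p of the mean belonged to Hist1h1e, a linker histone, at -0.29 ± 0.11 (SE, 17 against 14 mice), and to Hist1h2bm, a core histone H2B, at -0.14 ± 0.05. Hist1h2be, another H2B gene, differed by -0.16 ± 0.07, the H4 gene Hist2h4 by -0.22 ± 0.09 and Hist2h3c2-ps, listed under an H3 pseudogene symbol, by -0.18 ± 0.08. None passed: limma's adjusted p was 0.998 for each of the 5.

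**Figure D2:**
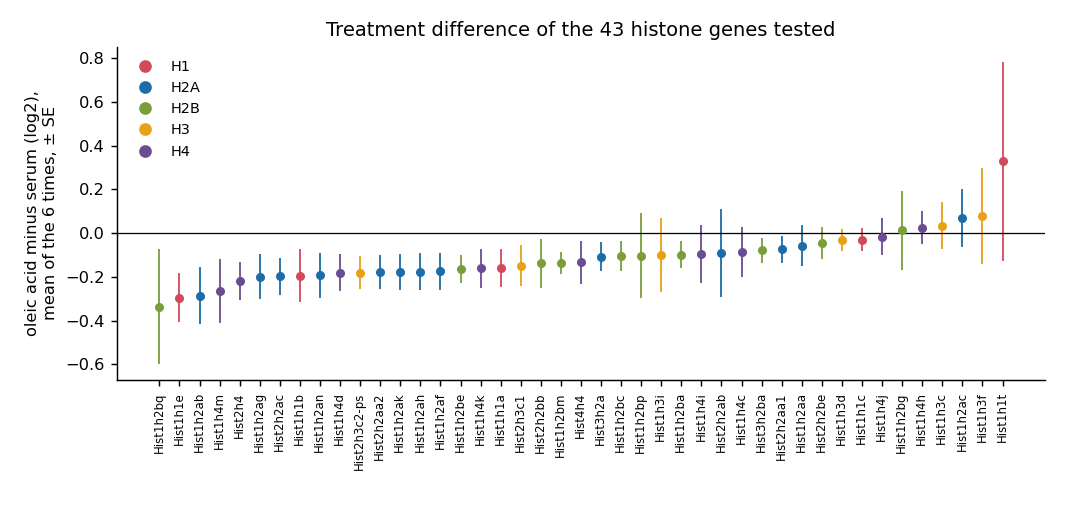
Oleic acid minus serum difference in level (log2), averaged over the 6 times, for the 43 histone genes tested, coloured by family, with limma's standard error as bars. The differences of 37 genes lie below 0, the median is -0.13, and no gene passed the adjusted test.

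Time by time, the list's lean was not uniform. The share below 0 was 38 of 43 at 1 h (49.6% of all genes), 35 at 1.5 h (52.2%), 14 at 3 h (46.2%), 31 at 4 h (48.6%), 26 at 18 h (55.0%) and 35 at 24 h (57.2%). Median differences were -0.19, -0.17, 0.11, -0.09, -0.14 and -0.29 in the same order, against medians between -0.04 and 0.02 for all genes. At 3 h the lean was thus the other way, and the medians moved with single mice. Leaving out 1 mouse at a time gave medians of -0.35 to 0.04 at 4 h, with between 17 and 34 of 43 genes below 0. The same gave 0.0081 to 0.26 at 3 h, -0.18 to -0.076 at 18 h and -0.36 to -0.094 at 24 h. A difference between the times themselves was called for 0 of 43 members, where 0% of all genes were called in limma's F-test. That F-test had 1 member with an unadjusted p under 0.05, Hist1h4h, beside 5.43% of all genes.

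None of the 43 was called at any single time. The share of all genes called was 0% at 1, 1.5, 3, 18 and 24 h and 0.00398% at 4 h, which is 1 gene. At an unadjusted p under 0.05 there were 4 members at 1 h (4.84% of all genes), 1 at 1.5 h (5.27%), 0 at 3 h (4.86%), 1 at 4 h (3.02%), 3 at 18 h (7.28%) and 3 at 24 h (6.57%).

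**Figure D3:**
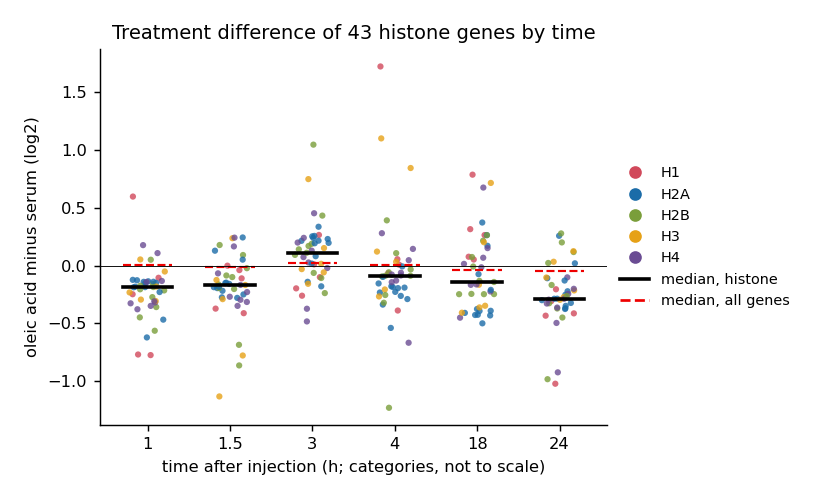
Oleic acid minus serum difference in level (log2) of each of the 43 histone genes at each time, coloured by family, with the median of the histone genes (black line) and of all 25132 genes tested (red dashed line). The histone median is -0.19 at 1 h, 0.11 at 3 h and -0.29 at 24 h, while that of all genes stays between -0.04 and 0.02.

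Hist1h1e had the smallest p at 1 h. Its levels were 1.85, 1.69 and 1.71 in serum mice and 0.95, 1.49 and 0.49 in oleic acid mice at 1 h, which did not overlap. The difference was -0.77 ± 0.25, with a limma adjusted p of 0.827. Its neighbours in p at 1 h were the linker histone Hist1h1b (-0.77), Hist1h2bc (-0.36), Hist1h2ab (-0.62) and Hist2h4 (-0.38), with limma adjusted p of 0.924 each. The oleic acid 1 h group held the arrays of highest and lowest 75th percentile, replicate 1 (813) and replicate 3 (306). Replicate 3 read lowest in its group for Hist1h1e, Hist1h1b (-3.09 against -1.98 and -1.62), Hist1h2bc and Hist1h2ab, but not for Hist2h4. The part of array scale in these differences was not tested. At 1.5 h the Hist1h1e levels were 1.06, 1.76 and 1.70 after serum and 0.84, 1.23 and 1.2 after oleic acid, which overlapped.

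The H4 gene Hist2h4 shows how small such differences were for a bright probe. Its levels at 1 h were 4.63, 4.47 and 4.52 after serum and 4.01, 4.39 and 4.09 after oleic acid, without overlap. At 3 h they were 4.06 and 4.55 against 4.44, 4.20 and 4.50, and overlapped. Hist1h2bm, the H2B gene, had levels of 2.97, 3.09 and 2.99 after serum at 1 h against 2.82, 2.87 and 2.88 after oleic acid. At 24 h the Hist1h2bm levels were 3.18 and 2.95 against 2.93, 2.87 and 2.42, a difference of -0.33 ± 0.13 with a limma adjusted p of 0.751. Both comparisons of Hist1h2bm were without overlap and neither passed the test. The genes shown between treatments were picked by small p, which favours a lack of overlap, as also for Hist1h1e and Hist1h4h. The share of all genes without overlap between treatments is not given here, so such gaps are a description.

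At 1.5 h the smallest p belonged to the H3 genes Hist1h3f (-1.13) and Hist1h3i (-0.78), which were above background on 2 and on 1 of 3 oleic acid arrays; Hist2h3c2-ps (-0.29), Hist1h1e (-0.41) and Hist1h4d (-0.32) came next. At 3 h they were Hist1h4h (-0.37), Hist1h2bq (1.04), Hist2h2aa1 (0.23), Hist1h4i (-0.48) and Hist1h3f (0.75), which was above background on 0 of 2 serum arrays. At 4 h they were Hist1h3i (1.1), Hist1h2bc (-0.32), Hist1h2bq (-1.23), Hist1h4m (-0.67) and Hist3h2ba (-0.26). No array of the oleic acid group at 4 h (0 of 3) read Hist1h2bq above background. The widest differences at 1.5, 3 and 4 h thus came from dim probes, in both directions. None of these passed, with limma adjusted p from 0.903 to 0.996.

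At 18 h the core histone genes Hist1h4h, Hist1h3c, Hist2h2ac, Hist2h2aa2 and Hist2h3c2-ps had the smallest p, at 0.67, 0.71, -0.50, -0.43 and -0.41, with a limma adjusted p of 0.671 each. The Hist1h4h levels were -2.05 and -2.04 after serum and -1.31 and -1.43 after oleic acid, a gap without overlap. All 18 h serum arrays lie on slide 4 and all 18 h oleic acid arrays on slide 5, and over all times the Hist1h4h mean was -1.73 on slide 4 and -1.12 on slide 5. With slide as a fixed block the Hist1h4h difference turned to -0.29, and that of Hist2h3c2-ps to 0.24.

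At 24 h, Hist1h4m (-0.92), Hist1h2bm, Hist1h2ba (-0.37), the linker histone Hist1h1a (-0.43) and Hist2h2ac (-0.38) had the smallest p, with limma adjusted p from 0.751 to 0.752. At 24 h both serum arrays and 1 of 3 arrays of the oleic acid group read Hist1h4m above background. For Hist2h2ac, an H2A gene, the levels were 5.82 and 5.35 after serum and 5.43, 5.43 and 4.76 after oleic acid, which overlapped.

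Per array, the median deviation of the 43 members from their own means ran from -0.15 to 0.30 in serum mice (median 0.08) and from -0.39 to 0.18 in oleic acid mice (median -0.06). On the 4 arrays of lowest Gabra6 it was 0.205 (serum 1 h replicate 1), 0.254 (serum 4 h replicate 2), 0.182 (oleic acid 4 h replicate 3) and -0.113 (oleic acid 1.5 h replicate 2). The treatments did not overlap in this median at 1 h, 1.5 h and 18 h, and overlapped at 3, 4 and 24 h. At 1.5 h the gap was narrow, with serum mice down to -0.1077 and oleic acid mice up to -0.1129. Only slide 2 held both treatments at 1.5 h, and no slide did at 18 h, so treatment cannot be set apart from slide there. The share of spots above background had a median of 61.9% after serum and 63.6% after oleic acid, and the 75th percentile of intensity a median of 556 and 596; their part in the lean was not tested.

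More of these genes passed the test between times than between treatments, and the smallest p belonged to a linker histone, Hist1h1c. Over both treatments, 9 of 43 members differed between times in limma's F-test, where 35.8% of all genes did. They were the linker histones Hist1h1c, Hist1h1e and Hist1h1a, the H2A gene Hist1h2aa, the H2B genes Hist1h2bp and Hist3h2ba, the H3 genes Hist1h3c and Hist1h3f and the H4 gene Hist1h4h. In serum mice alone 5 members passed (10.5% of all genes): Hist1h1c, Hist1h4h, Hist1h3c, Hist1h1e and Hist1h2aa. In oleic acid mice alone 4 passed (7.1% of all genes), the same names without Hist1h1e. Of the spread between arrays, time held a median of 21.3% over the 43 members and slide 28.1%, against 33.7% and 37.1% over all genes.

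Hist1h1c, which encodes a linker histone that is abundant in many tissues, was lower in all 9 mice taken at 18 and 24 h than in all 22 taken at 1 to 4 h. Each mouse was measured once. Its probe lies at chr13:23832018-23832077 (+, mm9). The array annotation starts it at base 1342 of the transcript, against 661 for the Hist1h1e probe, which ends in the stop codon. How much of the Hist1h1c transcript ends at the stem-loop, short of such a position, was not measured. After serum its levels were 2.08, 2.13 and 1.83 at 1 h, 1.89, 2.20 and 2.03 at 1.5 h, 2.16 and 2.25 at 3 h, 1.98 and 2.32 at 4 h, 1.13 and 1.30 at 18 h, and 1.43 and 1.29 at 24 h. After oleic acid they were 1.92, 1.90 and 1.90 at 1 h, 2.05, 2.07 and 1.88 at 1.5 h, 1.99, 2.17 and 2.15 at 3 h, 2.14, 2.17 and 2.17 at 4 h, 1.46 and 1.49 at 18 h, and 1.33, 1.21 and 0.93 at 24 h. The 22 arrays of 1 to 4 h lay between 1.83 and 2.32 (median 2.07) and the 9 arrays of 18 and 24 h between 0.93 and 1.49 (median 1.30), so the groups did not overlap. Of the 43 members it was the 1 that separated so, and 0.0597% of all genes (15 of 25132) did.

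The fall of Hist1h1c at 18 and 24 h was -0.69 ± 0.06 against 1 and 1.5 h, a 1.61-fold lower level (limma adjusted p = 2.19e-06). Against 3 and 4 h it was -0.85 ± 0.07, or 1.81-fold lower (limma adjusted p = 3.01e-08). By treatment, the difference from 3 and 4 h was -0.89 ± 0.10 in serum mice and -0.81 ± 0.09 in oleic acid mice. The mean oleic acid minus serum difference of Hist1h1c was -0.03 ± 0.05, and the test of a difference in that between times had a limma adjusted p of 0.837.

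Slide values stand beside this fall. Of the spread of Hist1h1c between arrays, time held 89.6%, slide 50.5% and treatment 0.262%. Slide 4 held serum mice of both 4 h and 18 h, and there the levels were 1.98 and 2.32 at 4 h against 1.13 and 1.30 at 18 h. This difference was -0.94 ± 0.14 in the fit over all arrays (limma adjusted p = 0.00154), and 1 of 43 members was called, Hist1h1c, against 0.927% of all genes (0.29% higher, 0.637% lower). Fitted on slide 4 alone it was -0.94 ± 0.16, with a limma adjusted p of 0.248. On slide 2 a serum mouse of 1.5 h had a level of 2.03 and one of 24 h a level of 1.29. With slide as a fixed block, the contrasts of Hist1h1c were -0.98 ± 0.21 (adjusted p = 0.0509) against 3 and 4 h and -0.78 ± 0.20 (adjusted p = 0.245) against 1 and 1.5 h in limma's fit; these are the alternatives, 1 of 48 for each contrast, in which it was not called.

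**Figure D4:**
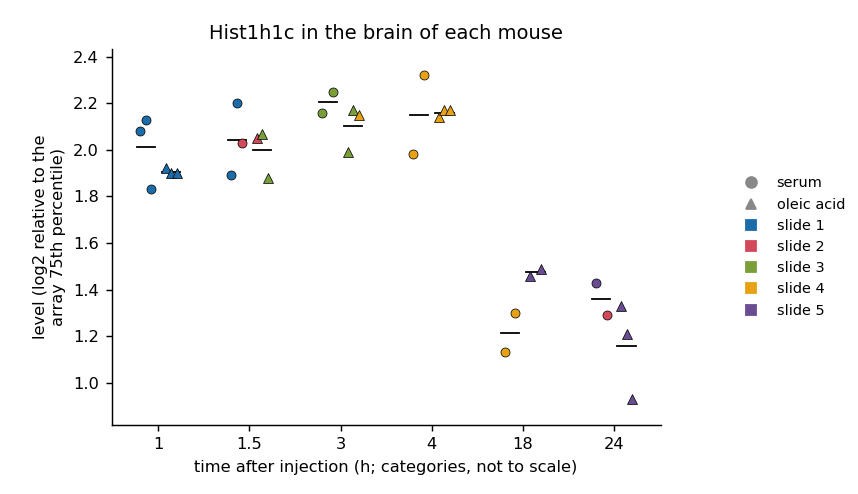
Level of Hist1h1c in the brain of each of the 31 mice (log2 processed intensity minus the array 75th percentile) by time after injection, with 1 symbol per mouse (circles serum, triangles oleic acid), coloured by slide, and a bar at each group's mean. All 22 mice of 1 to 4 h lie at 1.83 or above, and all 9 mice of 18 and 24 h at 1.49 or below, in both treatments.

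Hist1h1e, a second linker histone, also fell late. At 1 and 1.5 h its levels are given above; at 3 h they were 1.57 and 1.73 after serum and 1.45, 1.43 and 1.48 after oleic acid, and at 4 h 1.04 and 1.58 against 0.44, 1.00 and 1.33. At 18 h they were 0.44 and 0.52 after serum and 0.75 and 0.84 after oleic acid, and at 24 h 1.25 and 0.84 against 1.00, 0.90 and 0.31. The early arrays ran from 0.44 to 1.85 (median 1.44) and the late from 0.31 to 1.25 (median 0.84), so Hist1h1e overlapped where Hist1h1c did not. Its late difference was -0.57 ± 0.13 against 1 and 1.5 h (limma adjusted p = 0.00918) and -0.57 ± 0.14 against 3 and 4 h (limma adjusted p = 0.0099). Both calls of Hist1h1e were lost with slide as a block, where the difference from 1 and 1.5 h was -1.06 ± 0.41 (fixed) or -0.63 ± 0.19 (random) and that from 3 and 4 h -0.53 ± 0.44 or -0.57 ± 0.19. Both were also lost without the 3 arrays of highest Prl (-0.47 each; limma adjusted p 0.0666 and 0.0776). The second was also lost without the 4 arrays of lowest Gabra6 (-0.45; limma adjusted p = 0.0744).

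Hist1h1a, the third linker histone called, fell by 0.42 against 1 and 1.5 h (SE 0.11, limma adjusted p = 0.0125), with early arrays from -4.02 to -2.92 and late arrays from -4.16 to -3.23. Against 3 and 4 h its difference was -0.13 ± 0.11 and was not called. The call of Hist1h1a was lost with normexp background correction (-0.21, limma adjusted p = 0.170) and without the arrays of highest Prl (-0.37, limma adjusted p = 0.0898). It was also lost with slide as a fixed block, at -1.18 ± 0.26 (limma adjusted p = 0.148), and as a random block, at -0.54 ± 0.15 (limma adjusted p = 0.0936). The other 2 linker histones tested were not called: against 3 and 4 h the late difference was 0.08 ± 0.15 for Hist1h1b and 0.56 ± 0.58 for Hist1h1t.

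The promoters of the linker genes were compared with those of the other families by letters known from histone promoters. RefSeq's table (GRCm38.p6) held promoters of 43 of the 49 members, of 300 bases each. The H1 box, here the letters AAACACA on either strand, lay in 5 of 6 H1 promoters, 2 of 14 H2A, 2 of 9 H2B, 0 of 6 H3 and 0 of 8 H4 promoters, and in 7.18% of all 32851. The octamer ATTTGCAT lay in 7 H2A and 6 H2B promoters and in 0 of the H1, H3 and H4 promoters, against 1.74% of all. CCAAT lay in all 6 H1 promoters and in 37 of the 43 (37.4% of all), and TATAAA in 26 of the 43 (13.6% of all). A match is a description of the letters and not a measured site. The promoters of the 2 linker genes that fell in both late contrasts are shown, 250 bases up to the start on the gene's strand, with the matches in capitals: Hist1h1c (H1f2 in RefSeq) at chr13:23738557-23738806 (+) and Hist1h1e (H1f4) at chr13:23622559-23622808 (-), both on GRCm38.p6.
Hist1h1c: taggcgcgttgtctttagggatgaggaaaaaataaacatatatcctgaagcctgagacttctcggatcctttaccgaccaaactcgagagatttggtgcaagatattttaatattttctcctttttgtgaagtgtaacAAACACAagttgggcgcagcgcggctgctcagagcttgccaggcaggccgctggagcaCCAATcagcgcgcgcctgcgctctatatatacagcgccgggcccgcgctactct
Hist1h1e: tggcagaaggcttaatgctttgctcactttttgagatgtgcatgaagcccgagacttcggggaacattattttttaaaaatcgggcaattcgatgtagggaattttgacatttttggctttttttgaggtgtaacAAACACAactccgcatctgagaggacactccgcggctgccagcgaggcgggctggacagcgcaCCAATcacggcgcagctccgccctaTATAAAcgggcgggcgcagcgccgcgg
In Hist1h1c the H1 box started 112 bases before the gene's start and CCAAT 54 bases before it. In Hist1h1e they started 115 and 52 bases before the start, with TATAAA at 27. Hist1h1a, with CCAAT at 56 and TATAAA at 33, had no AAACACA within these 250 bases. The promoters of Hist1h1b and Hist1h1t, called in neither late contrast, also held AAACACA. Hist1h1t was above background on 13 arrays, so its late change is uncertain. Whether these letters bear on the late differences was not tested.

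Among the core histones, calls between times went in both directions. From 1 and 1.5 h to 18 and 24 h, 5 of 43 members were called (11.2% of all genes): the 3 linker histones were lower (5.01% of all genes), and Hist1h4h and Hist1h2aa were higher (6.22% of all genes). From 3 and 4 h to 18 and 24 h, 6 were called (12.7% of all genes). Hist1h1c, Hist1h1e and Hist1h2bp were lower (7.74% of all genes), and Hist1h2aa, Hist1h3c and Hist2h2be were higher (4.96% of all genes). From 1 and 1.5 h to 3 and 4 h, 2 were called (9.51% of all genes), Hist1h3c and Hist1h3f, both lower (2.77% of all genes), and 0 higher (6.74% of all genes). The deposited value table instead gave 4 higher and 4 lower for the first of these contrasts and 5 higher and 3 lower for the second. The share of all genes called with those values is not given here, so these counts cannot be read as particular to histone genes.

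Hist1h2aa, an H2A gene known from testis, rose by 0.66 ± 0.12 from 3 and 4 h (limma adjusted p = 0.000728) and by 0.43 ± 0.11 from 1 and 1.5 h (limma adjusted p = 0.0157). Its levels at 4 h were -3.57 and -3.12 after serum and -3.58, -3.86 and -3.16 after oleic acid, and at 24 h -2.14 and -2.14 against -2.42, -2.54 and -2.57. The 24 h mice all lay above the 4 h mice. Over all times the early arrays ran from -3.86 to -2.46 and the late from -2.97 to -2.14, and overlapped. With slide as a fixed block neither call of Hist1h2aa held (0.22 and 0.28; limma adjusted p 0.786 and 0.999). The smaller one was also lost with slide as a random block (0.42, limma adjusted p = 0.258), with normexp (0.20, limma adjusted p = 0.109), without the arrays of highest Prl (0.42, limma adjusted p = 0.0752) and without oleic acid 18 h replicate 1 (limma adjusted p = 0.0515).

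Hist1h4h, an H4 gene, rose by 0.37 ± 0.09 from 1 and 1.5 h to 18 and 24 h (limma adjusted p = 0.0127). Its levels were -1.72, -1.93 and -1.85 after serum and -2.04, -1.94 and -1.95 after oleic acid at 1 h, and -0.77 and -0.79 against -1.15, -0.93 and -1.14 at 24 h, without overlap between these times. At 18 h the serum mice, at -2.05 and -2.04, lay at the 1 h level, so the late group was not uniform. Slide held 77.6% of the spread of Hist1h4h and time 61.5%, and with slide as a fixed block the difference was 0.03 (limma adjusted p = 0.999).

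Hist1h3c, an H3 gene, was lowest at 4 h. Its levels there were -1.95 and -2.33 after serum and -2.65, -2.01 and -2.38 after oleic acid, below all arrays of 1, 1.5, 3 and 24 h. At 24 h they were -0.90 and -0.35 against -0.87, -1.01 and -0.81. From 1 and 1.5 h to 3 and 4 h Hist1h3c fell by 0.42 (SE 0.13, limma adjusted p = 0.0406), and from there to 18 and 24 h it rose by 0.50 ± 0.14 (limma adjusted p = 0.0202). Slide 4, which held every 4 h array, had a mean of -2.14 for Hist1h3c, against -1.45, -0.69, -1.03 and -1.03 on slides 1, 2, 3 and 5, and slide held 81.8% of its spread. On slide 4 the other arrays were also low, with -2.25 and -1.77 in serum mice of 18 h and -1.79 in an oleic acid mouse of 3 h. Both calls of Hist1h3c were lost with slide as a block; leaving out 1 mouse ended the first in 14 of 31 fits and the second in 5, with limma adjusted p up to 0.0659 for the second. Without the arrays of lowest Gabra6 neither held (limma adjusted p 0.207 and 0.106), nor without those of highest Prl (limma adjusted p 0.0513 and 0.159). With slide as a fixed block the first difference of Hist1h3c was -0.16 (limma adjusted p = 0.976) and the second 0.43 (limma adjusted p = 0.595).

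Hist2h2be, an H2B gene, rose by 0.31 ± 0.09 from 3 and 4 h to 18 and 24 h (limma adjusted p = 0.0330), with late arrays from -1.28 to -0.78 inside the range of the early ones, -1.88 to -0.75. It lost this call in 10 of 31 fits without 1 mouse, and with slide as a fixed block its difference was -0.016. Without the arrays of lowest Gabra6 the difference of Hist2h2be was 0.20 (limma adjusted p = 0.161), without those of highest Prl 0.29 (limma adjusted p = 0.150) and with normexp 0.22 (limma adjusted p = 0.0689), none of them called. Hist1h2bp, another H2B gene, fell by 1.03 (SE 0.25, limma adjusted p = 0.00811), but was above background on 2 of 9 late arrays and 5 of 10 arrays of 3 and 4 h. With normexp the difference of Hist1h2bp was -0.26 (limma adjusted p = 0.202), and with slide as a fixed or random block -1.49 or -1.1 (limma adjusted p 0.465 and 0.0587). Hist1h3f, the dim H3 gene, fell by 0.84 from 1 and 1.5 h to 3 and 4 h (SE 0.26, limma adjusted p = 0.0441), with 3 of 10 arrays above background against 10 of 12. Hist1h2bp and Hist1h3f were tested because all arrays of some group read them above background. Such a filter favours a fall toward arrays near background, so the size of both falls is uncertain and neither call stands apart from the filter. The Hist1h3f call was lost in 20 of 31 fits without 1 mouse. Its difference was -0.071 with normexp (limma adjusted p = 0.786) and -0.26 in the deposited value table (limma adjusted p = 0.149), and without the arrays of lowest Gabra6 it was -0.97 (limma adjusted p = 0.104). Hist3h2ba, an H2B gene of the Hist3 cluster, was called in the F-test over times (limma adjusted p = 0.0157) and in none of the 3 contrasts. That call was lost without the arrays of lowest Gabra6 (limma adjusted p = 0.0863). The group means of Hist3h2ba by time spanned 0.40.

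**Figure D5:**
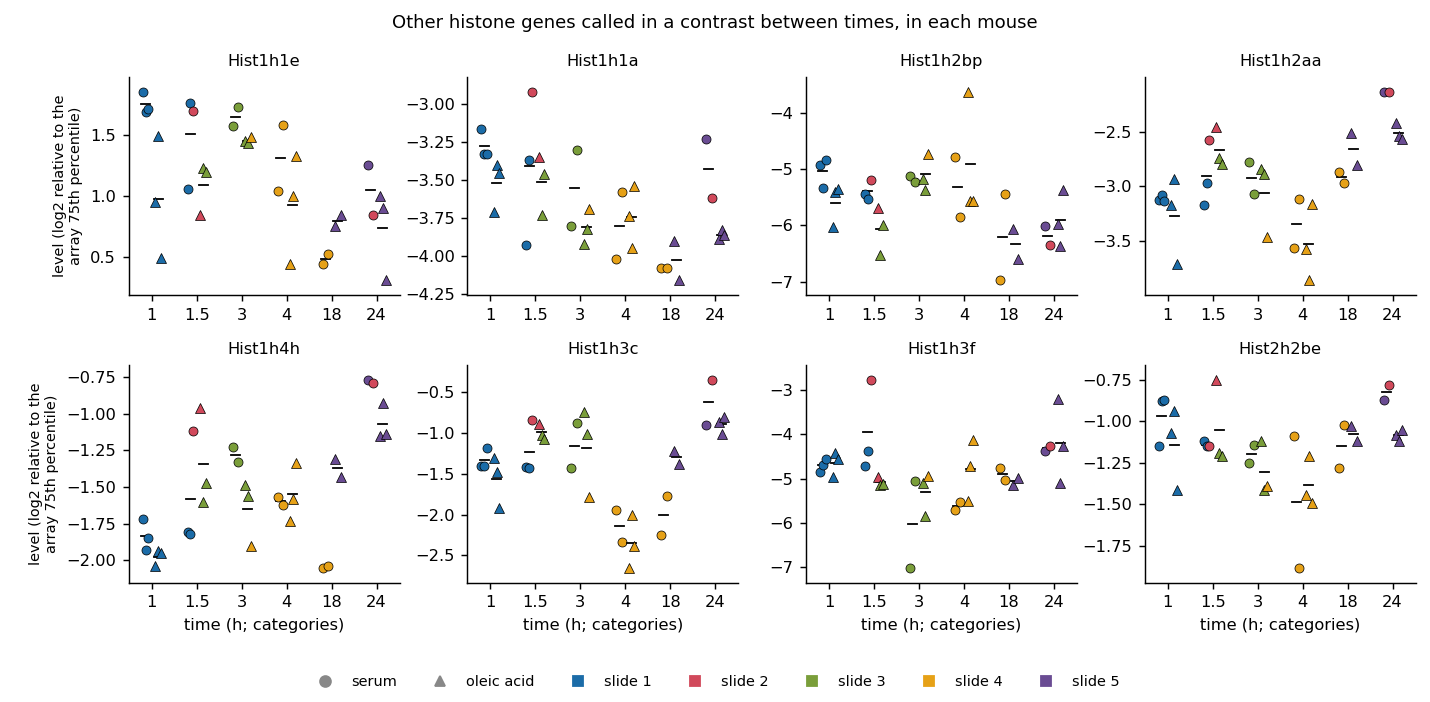
Levels of the 8 other histone genes called in a contrast between times, in each mouse (log2 processed intensity minus the array 75th percentile; 1 panel per gene, each with its own scale), by time, treatment (circles serum, triangles oleic acid) and slide (colour), with bars at group means. Hist1h3c reads lowest on slide 4, the means of Hist1h4h and Hist1h2aa are highest at 24 h, and early and late mice overlap in every panel.

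The near-identical H2A probes of high signal were called in no contrast between times. Hist2h2aa2, for example, had levels of 5.87, 5.74 and 5.71 after serum at 1 h and 5.96 and 5.60 at 24 h. After oleic acid its levels were 5.62, 5.65 and 5.62 at 1 h and 5.62, 5.67 and 5.00 at 24 h. These times overlapped in both treatments.

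Genes that work with histones were read from 4 lists: replacement histones, histone mRNA processing, histone chaperones and S-phase genes. Between oleic acid and serum, none of their members was called at any time or for the mean. From 1 and 1.5 h to 3 and 4 h, where 9.51% of all genes were called, 3 of 14 chaperone genes measured were higher and 0 lower. They were Chaf1b (0.55 ± 0.08, limma adjusted p = 0.000326) and Chaf1a (0.41), subunits of the factor that places new histones behind the replication fork, and Asf1b (0.26), which hands histones to it. Of 17 S-phase genes, 3 were higher: Mcm2 (0.47) and Mcm5 (0.32) of the replicative helicase and the cyclin Ccna2 (0.25). Of 17 processing genes, Lsm11 (0.35), part of the particle that cuts histone pre-mRNA, was higher and Ncbp2 (-0.24), part of the cap-binding complex, lower. Of 11 replacement histones, Cenpa, the centromeric H3, was higher (0.37).

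From 3 and 4 h to 18 and 24 h, Chaf1b (-0.50 ± 0.09, limma adjusted p = 0.000628), Asf1b (-0.31) and Chaf1a (-0.29) were lower, as were Mcm2 (-0.36), Ccna2 (-0.31) and Mcm3 (-0.23). Cenpa (-0.48) and H2afy (-0.31), a macroH2A gene, were also lower, and Lsm10 (0.25), another part of the cutting particle, was higher. From 1 and 1.5 h to 18 and 24 h, the chaperone gene Atrx (-0.32) and H2afy (-0.38) were lower, Lsm10 (0.21) higher, and 0 S-phase genes called. With slide as a fixed block, Chaf1b was the 1 gene of these lists still called, at -1.19 from 3 and 4 h to 18 and 24 h (limma adjusted p = 0.0153). In serum mice, Chaf1b was also lower at 18 h than at 4 h in the fit over all arrays (-0.79, limma adjusted p = 0.0486). For that contrast 0.927% of all genes were called. These mice all lay on slide 4, but the value is not from a fit on slide 4 alone.

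Several other genes of histone supply and division, named whatever their values, were not called from 3 and 4 h to 18 and 24 h, unlike Mcm2, Mcm3 and Ccna2 above; 13 of the 17 S-phase genes lay below 0. The late minus 3 and 4 h difference was -0.02 ± 0.08 for Slbp, which binds the stem-loop, -0.10 ± 0.09 for Pcna, the replication clamp, -0.03 ± 0.10 for the proliferation marker Mki67, and -0.63 ± 0.29 for Top2a, above background on 14 arrays. Among replacement histones it was -0.09 ± 0.07 for H2afz, -0.16 ± 0.08 for H3f3b and -0.04 ± 0.18 for H1f0, the linker histone of resting cells. H1f0 did differ in the F-test over times (limma adjusted p = 0.0334). Npat, the activator of histone transcription, was above background on 0 arrays.

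Markers of other regions moved with late time in part. From 3 and 4 h to 18 and 24 h, the 3 anterior pituitary markers measured and all 4 cerebellar markers were higher, with 0 called in limma's fit (Pomc 1.68, adjusted p = 0.0936). The neuronal Rbfox3 (-0.25) was called lower, as was 1 of 4 oligodendrocyte markers. Below 0 lay all 4 neuronal markers (median -0.18), all 4 astrocyte markers (median -0.21, 0 called) and 3 of 4 oligodendrocyte markers (median -0.18). Of the erythroid markers 3 of 4 lay below 0, and of the neutrophil and hepatocyte markers 1 of 4 each, with 0 called. The 3 arrays of highest Prl were all of 24 h mice. Without them Hist1h1c was still called in both late contrasts.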

How the data were processed

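RNA of 31 mouse brains was labelled from 200 ng each and hybridised to 1 Agilent Cy3 array per mouse. The authors extracted the scans with Feature Extraction 10.5.1.1, per the submitters' processing notes. The deposited array files hold, for 62976 spots, Cy3 intensity as a mean, a local background and a processed value, and flags of 0 or 1, per the file headers. The authors' deposited value table holds log2 values; its columns have like medians (6.35) and correlate at 0.998 or more with their own array's log2 mean spot intensity, but its centring and steps are not given in the sources used here. Probe coordinates are those of mm9, per the file headers; promoters come from RefSeq's GRCm38.p6 table, and all 49 members were matched to RefSeq, 48 of them by accession.

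From the processed intensity, log2 values minus each array's 75th percentile over non-control spots were computed. Non-uniform spots were left out, repeated spots averaged, and no spot was saturated. Of 55681 probes, 35641 were read well above background by all arrays of 1 or more groups, and 35487 of those were measured on all 31 arrays. Limma 3.58.1 in R 4.3.3 fitted 12 group means (19 residual degrees of freedom), with Benjamini-Hochberg adjustment over 25132 genes and a threshold of 0.05. The fit was tested on simulated data. Arrays limit precision by their number and by signal over background.

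Members, lists and tests were chosen with earlier results of these data known. Named are the 10 brightest probes, every member called in a comparison (at most 10) or, where fewer than 5 passed, the 5 smallest p; of the lists, up to 4 called genes a comparison and 8 genes always. Of the 5 genes with several probes, the brightest is given. Alternatives were background correction, scaling, filter, probe averaging, slide, scan, replicate number, arrayWeights, the arrays fitted, and each mouse left out. The comparison of serum 18 h with serum 4 h, fits within slides, the fit without slide 2 and the count of genes that do not overlap were added after seeing the data. Replicate numbers mark nothing stated, and same-numbered mice deviated together with correlations of -0.622 to 0.392, so they were not taken as pairs.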

Additional observations from a re-analysis of the deposited data

How the results depend on the processing

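Counts of called members (limma, adjusted p under 0.05) went down with slide as a block and up with arrayWeights. For the F-test over times, 9 members fell to 0 with slide as a fixed block and 3 as a random block (correlation within a slide 0.218), and arrayWeights gave 23. For serum mice, 5 became 1 with either slide block or the array median, 2 with the arrays compared alone, without the arrays of lowest Gabra6 or of highest Prl, 3 with no filter and 12 with arrayWeights. For oleic acid mice, 4 became 0 and 1 with the slide blocks, 2 with the arrays compared alone or without highest Prl, and 8 with arrayWeights. For 3 and 4 h against 1 and 1.5 h, 2 became 0 with either slide block, no filter or without lowest Gabra6, 1 with normexp, the filter of 24 arrays, scan date or the arrays compared alone, 4 with quantile normalization or the deposited table, and 8 with arrayWeights. For 18 and 24 h against 1 and 1.5 h, 5 became 0 and 1 with the slide blocks, 3 without highest Prl, 8 with the deposited table, the arrays compared alone or without slide 2, and 15 with arrayWeights. Against 3 and 4 h, 6 became 0 and 2 with the slide blocks and 3 without highest Prl. For oleic acid against serum, every setting gave 0 at each time except arrayWeights, whose weights did not fully converge: 2 at 1.5 h (Hist2h2aa1 and Hist4h4) and 1 at 18 h (Hist1h4h). With slide as a fixed block the calls over all 25132 genes fell too, from 3190 to 105 for late against 3 and 4 h. For 3 and 4 h against 1 and 1.5 h they fell from 2391 to 3. Shares of all genes under the other settings are not given here, so the member counts cannot be read as particular to histone genes. The cause of these shifts was not tested.

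Leaving out 1 mouse gave 6 to 11 members for the F-test over times, 2 to 7 in serum mice, 3 to 5 in oleic acid mice, 0 to 5 for 3 and 4 h against 1 and 1.5 h, 4 to 6 and 4 to 7 for the late contrasts, and 0 throughout for oleic acid against serum. The serum count was 3 without serum 1 h replicate 1, 2 or 3, serum 3 h replicate 1, serum 18 h replicate 2 or serum 24 h replicate 2, and 2 without serum 18 h replicate 1. The count of 2 at 3 and 4 h moved in 21 of 31 fits. With the replicate block, which has no stated pairing behind it, the counts were 8, 6, 4, 2, 6 and 7 for these comparisons in that order, and 0 for oleic acid against serum. In the main fit the shares of all genes called were 35.8%, 10.5%, 7.1%, 9.51%, 11.2% and 12.7% in the same order. Shares under the fits of this paragraph are not given here, so its counts cannot be read as particular to histone genes.

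Directions turned for 7 values, of which 1 was called, the late rise of Hist2h2be: at 3 h Hist1h2bq with normexp (-0.10) and Hist1h3f with normexp (-0.32) or without serum 3 h replicate 1 (-0.24; 1 mouse left out in turn gave -0.24 to 1.73); and with slide as a fixed block Hist1h4h (-0.29) and Hist2h3c2-ps (0.24) at 18 h, and Hist2h2be from 3 and 4 h to 18 and 24 h (-0.016) and from 1 and 1.5 h to 3 and 4 h (0.20). The median oleic acid minus serum difference over the 6 times stayed between -0.19 and -0.10 in all 47 alternatives, with 33 to 40 members below 0. Alternatives with another filter tested another number of members, so these counts are not all out of 43. Leaving out 1 mouse gave 35 to 39 of 43. Fits within 1 slide called 0 members; slide 2 at 1.5 h has 1 mouse a treatment and no test. Probes near background, 2 or 3 mice a group and slides that follow time limit every value.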

Other observations

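Besides Hist1h1c, 14 of 25132 genes had 22 arrays of 1 to 4 h that did not overlap with the 9 arrays of 18 and 24 h; those named here were chosen after their values were seen. Chromatin and RNA-binding genes were among them. Hmgb2, which codes for a chromatin protein that bends DNA, lay between 0.09 and 0.90 early and between -0.95 and -0.32 late. Its late difference was -1.19 ± 0.08 against 3 and 4 h (limma adjusted p = 4.94e-09). Psip1, a chromatin-bound coactivator gene, lay between 1.62 and 2.14 early and between 1.22 and 1.5 late (-0.41 ± 0.05, limma adjusted p = 2.63e-05). Cirbp, the cold-inducible RNA-binding protein gene, lay between 3.32 and 4.17 early and between 2.87 and 3.30 late (-0.85 ± 0.06, limma adjusted p = 2.44e-08).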
